A study of Mus musculus with 2 samples.

Results

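Genes of the podocyte slit diaphragm and foot process were examined in kidney RNA of Iah1-KO and Iah1-WT mice. The set was a fixed list of 9 genes: Nphs1 and Kirrel (adhesion across the slit), Cd2ap and Magi2 (scaffold and adaptor proteins), Synpo and Actn4 (actin cytoskeleton), Podxl and Ptpro (apical surface) and Plce1 (a signalling enzyme). A gene was represented by the probe set that carries its symbol alone in the platform annotation, and by the brightest such probe set where there were several. This gave values for 8 of the 9 genes, out of 22180 genes measured in the same way, each of the 8 from 1 probe set; Magi2 was not analysed here.

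Iah1-KO males, which carry a systemic knockout of the esterase gene Iah1, were set against Iah1-WT males. Mice of both genotypes were housed 1 to a cage, ate chow until 6 weeks of age and then spent 12 weeks on a high-fat diet. Kidneys were taken early in the afternoon, when the mice had had no food for 4 hours. There was no chow-fed group here, so the diet is shared by both genotypes. Per the series description, kidney RNA of 3 mice was pooled for each genotype and hybridised to 1 Affymetrix array, which gave 2 arrays. Values are on the log2 scale after RMA, a procedure that corrects background, gives the arrays 1 common distribution and summarises the probes of a set. The sources used here do not give the strain or the deleted part of Iah1. With 1 array per genotype there are no replicates, no SD and no test between genotypes, and every difference below is between 2 pools.

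Podocytes are the epithelial cells that wrap the glomerular capillaries. Their interlocking foot processes are bridged by the slit diaphragm, a modified cell junction that completes the filtration barrier to plasma protein. The proteins of the slit are anchored through adaptors to actin filaments in the foot process, and inherited loss of several of them causes nephrotic syndrome in humans. Podocytes are a small share of kidney cells, and in whole-kidney RNA fewer cells of a type and less RNA per cell cannot be told apart.

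The promoters of the genes with the largest differences are shown first, because the set joins genes restricted largely to podocytes, such as Nphs1, with genes used by many cell types, such as Cd2ap and Actn4. RefSeq's promoter table for GRCm38.p6 held windows for 6 of the 8 measured genes, each of 300 bases from 250 before to 50 after a gene's start. The 4 of these genes with the largest sizes of difference are printed 5′ to 3′ on the gene's strand, with every CpG in capitals. The windows are chr7:30459808-30460107 (plus strand) for Nphs1, chr6:137252049-137252348 (plus strand) for Ptpro, chr17:42876375-42876674 (minus strand) for Cd2ap and chr7:28962283-28962582 (minus strand) for Actn4.
Nphs1: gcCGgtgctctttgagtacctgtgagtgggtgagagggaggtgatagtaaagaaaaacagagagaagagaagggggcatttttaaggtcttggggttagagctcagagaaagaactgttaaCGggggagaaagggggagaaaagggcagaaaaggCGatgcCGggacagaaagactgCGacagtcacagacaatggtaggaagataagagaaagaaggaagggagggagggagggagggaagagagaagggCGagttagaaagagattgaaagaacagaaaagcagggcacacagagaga
Ptpro: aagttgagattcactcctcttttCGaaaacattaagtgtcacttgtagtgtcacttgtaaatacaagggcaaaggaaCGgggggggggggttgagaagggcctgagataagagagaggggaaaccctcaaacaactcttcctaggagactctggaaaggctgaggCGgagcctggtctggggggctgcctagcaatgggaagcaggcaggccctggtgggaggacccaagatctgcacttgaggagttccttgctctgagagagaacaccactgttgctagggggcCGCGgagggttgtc
Cd2ap: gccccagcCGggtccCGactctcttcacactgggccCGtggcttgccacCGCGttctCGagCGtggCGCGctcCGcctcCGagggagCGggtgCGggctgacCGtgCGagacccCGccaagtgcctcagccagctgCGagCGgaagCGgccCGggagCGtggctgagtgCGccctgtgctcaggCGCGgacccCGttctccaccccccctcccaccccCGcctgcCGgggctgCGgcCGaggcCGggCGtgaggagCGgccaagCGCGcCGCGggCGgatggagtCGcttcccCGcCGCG
Actn4: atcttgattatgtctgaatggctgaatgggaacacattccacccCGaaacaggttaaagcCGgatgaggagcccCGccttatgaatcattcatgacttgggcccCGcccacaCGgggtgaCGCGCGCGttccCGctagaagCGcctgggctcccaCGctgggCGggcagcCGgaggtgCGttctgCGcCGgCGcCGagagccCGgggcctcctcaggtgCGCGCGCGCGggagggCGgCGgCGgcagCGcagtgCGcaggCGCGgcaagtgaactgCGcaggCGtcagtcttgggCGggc

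The windows differed in CpG number. Nphs1 and Ptpro held 6 and 5 CpG, near the median of 7 over all 32851 windows in the table, and Plce1 held 8. Cd2ap held 41 CpG, more than 96.5% of windows, Actn4 held 35 and Kirrel 28. The letters GNGNGGGNG, a form bound by the podocyte regulator WT1 and by EGR proteins, were searched on both strands with overlapping matches counted. They occurred 5 times in the Nphs1 window, 4 times in that of Ptpro, 6 times in that of Cd2ap, 4 times in that of Actn4 and 6 times in that of Kirrel, and in 39.6% of all windows. The Plce1 window had 0 matches. The TATA box letters TATAAA, present in 13.6% of all windows, had 0 matches in the 6 windows. These matches describe letters, not bound sites.

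The labels were checked against the targeted gene and against tissue markers. Iah1 (probe set 17274471) was at 3.60 in the Iah1-KO pool and 9.09 in the Iah1-WT pool on the log2 scale, and its difference ranked 1 of 22180 genes in size. The Iah1-KO value was under 4.03, the median of its array, and is not shown to lie above background. The 15 tubule markers were all at or above a log2 value of 6, the level taken here as the expression floor, with the proximal phosphate transporter Slc34a1 at 12.67 in the Iah1-KO pool and 12.62 in the Iah1-WT pool. Among defining podocyte markers outside the set, Wt1, a transcription factor needed for podocyte identity, was at 6.05 in the Iah1-KO pool and 6.03 in the Iah1-WT pool. Lmx1b, a LIM homeodomain factor, was at 5.68 (Iah1-KO) and 5.65 (Iah1-WT), and Tcf21, a bHLH factor also made by kidney stroma, was at 6.46 (Iah1-KO) and 6.17 (Iah1-WT). These 3 lay above the median of their array in both pools.

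None of the 8 podocyte genes differed between the pools by 1.5-fold, the size taken as a call. Past this size, 0.996% of all 22180 genes were higher in the Iah1-KO pool and 1.42% were lower, so a count of 0 among 8 genes is near the background. Among genes at or above the floor 0.222% were higher and 0.209% lower, and at 2-fold, over all genes, 0.0857% were higher and 0.0947% lower. The differences, Iah1-KO minus Iah1-WT on the log2 scale, ran from -0.15 for Synpo to 0.31 for Nphs1. They were above 0 for 5 genes (Nphs1, Cd2ap, Ptpro, Podxl and Plce1) and below 0 for 3 (Synpo, Actn4 and Kirrel), with a median of 0.08. Over all genes 10934 lay above 0 and 11192 below, with a median difference of 0.00 (-0.0024). At a lower threshold of 1.2-fold, 1 of the 8 genes, Nphs1, was higher and 0 were lower, beside 10.3% and 11.6% of all genes.

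**Figure D1:**
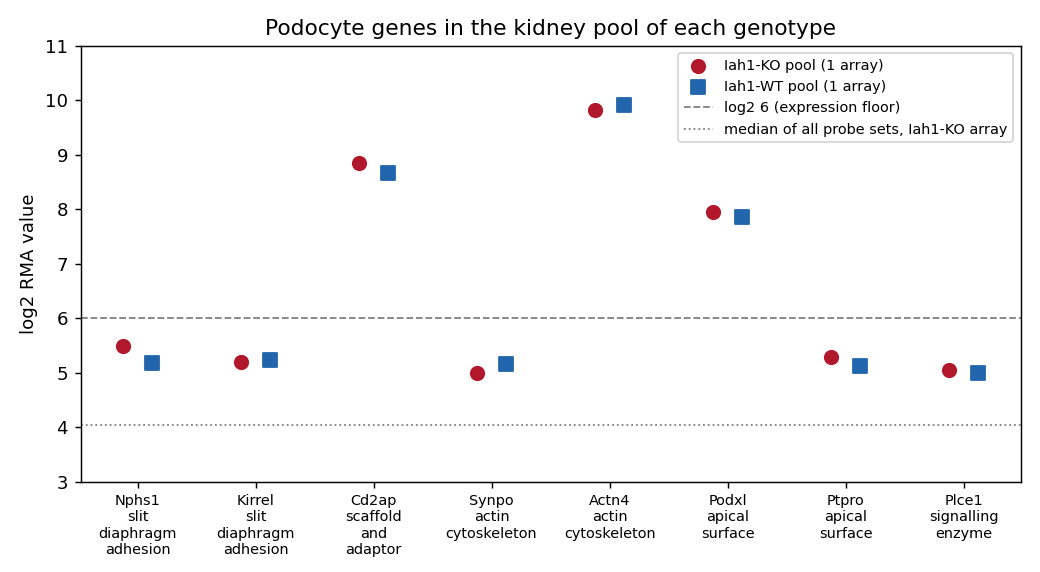
Log2 RMA value (vertical axis) of each of the 8 measured podocyte genes in the Iah1-KO pool (red circles) and the Iah1-WT pool (blue squares), 1 array each, grouped by role. The dashed line is the floor of log2 6 and the dotted line the median of the Iah1-KO array (4.03); Cd2ap, Actn4 and Podxl lie above the floor in both pools and the other 5 between the lines, and the points of a gene lie close together.

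Levels set how closely a difference could be read. Cd2ap, Actn4 and Podxl were above the floor of log2 6 on both arrays. Nphs1, Kirrel, Synpo, Ptpro and Plce1 lay below the floor on both arrays and above the array median on both. RMA compresses the differences of dim probe sets, and dim genes also scattered more. As a description of that scatter, a robust SD (1.48 times the median absolute deviation) was computed from the differences of the 500 genes nearest in mean level. It was 0.10 to 0.12 for the 3 brighter genes and 0.22 to 0.26 for the 5 dimmer ones. It is a spread over genes on 2 arrays and says nothing of the spread between mice.

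Of the adhesion proteins of the slit, Nphs1 had the largest difference of the set. Nphs1 encodes nephrin, an immunoglobulin superfamily protein whose extracellular part spans the slit, and mutations in it cause congenital nephrotic syndrome in humans. Its value was 5.48 in the Iah1-KO pool and 5.17 in the Iah1-WT pool. The difference of 0.31, 1.24-fold, was 1.44 local robust SDs, and 18.2% of the 500 genes nearest in level differed by at least that size. It ranked 3514 of 22180 genes by size. Kirrel encodes Neph1, the partner that binds nephrin across the slit, and its value was 5.20 in the Iah1-KO pool and 5.24 in the Iah1-WT pool. Its difference of -0.04 was the smallest of the 8, and 87.4% of the genes nearest in level differed by at least as much, and the higher value of Nphs1 in the Iah1-KO pool was not seen for this partner.

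Cd2ap was the adaptor gene of the set with a value. CD2AP is an SH3 domain protein that links nephrin to actin and to the endocytic machinery, and it is made in many cell types. Its value was 8.85 in the Iah1-KO pool and 8.66 in the Iah1-WT pool, a difference of 0.20 or 1.14-fold. This was 1.80 local robust SDs, and 8.8% of the 500 genes nearest in level differed by at least as much. Nphs1 and Cd2ap were the 2 genes of the set beyond 1 local robust SD, and 0 genes were beyond 2. Sh3kbp1, the paralog of Cd2ap that encodes CIN85, was at 5.25 in the Iah1-KO pool and 5.43 in the Iah1-WT pool, a difference of -0.18, and is named here after its values were seen.

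Both actin-associated genes had lower values in the Iah1-KO pool, by less than their local spread. Synpo encodes synaptopodin, an actin-binding protein of the foot process that stabilises RhoA and stress fibres. Its value was 5.00 in the Iah1-KO pool and 5.15 in the Iah1-WT pool, and the difference of -0.15 was the lowest of the set. Actn4 encodes alpha-actinin-4, a crosslinker of actin filaments found in many cells, and mutations in it cause focal segmental glomerulosclerosis in humans. Its value was 9.83 in the Iah1-KO pool and 9.91 in the Iah1-WT pool, a difference of -0.09. The sizes were 0.58 and 0.86 local robust SDs for Synpo and Actn4.

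The apical and signalling genes had slightly higher values in the Iah1-KO pool. Podxl encodes podocalyxin, the charged sialomucin that coats the foot processes and also covers endothelial cells. Its value was 7.96 in the Iah1-KO pool and 7.86 in the Iah1-WT pool, a difference of 0.10. Ptpro encodes GLEPP1, a receptor tyrosine phosphatase of the apical podocyte membrane, and its value was 5.29 in the Iah1-KO pool and 5.12 in the Iah1-WT pool, a difference of 0.18. Plce1 encodes phospholipase C epsilon, in which mutations cause early nephrotic syndrome in humans, and its value was 5.05 in the Iah1-KO pool and 5.00 in the Iah1-WT pool, a difference of 0.05. The size of each of these 3 differences was less than 1 local robust SD, at 0.86 for Podxl, 0.77 for Ptpro and 0.20 for Plce1.

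**Figure D2:**
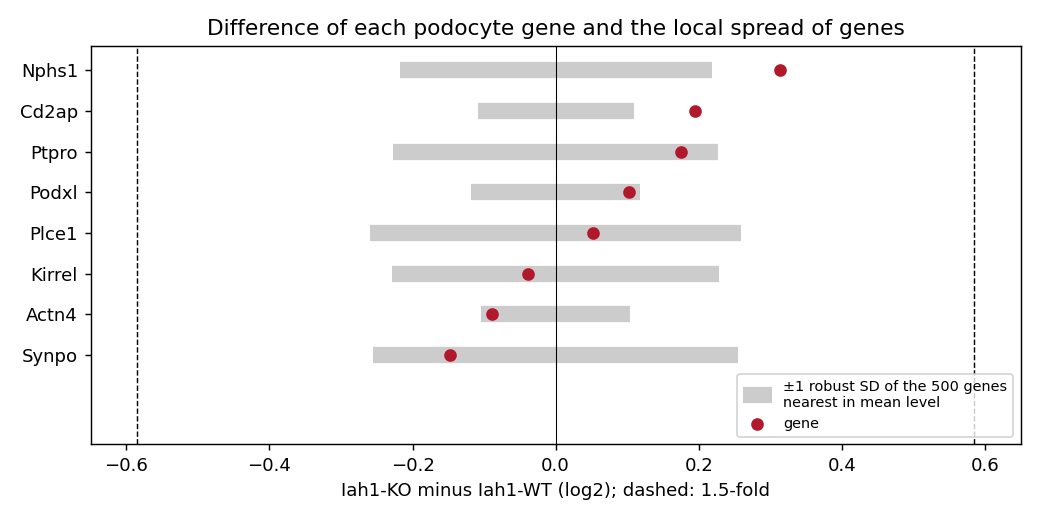
Difference of each podocyte gene, Iah1-KO minus Iah1-WT on the log2 scale (horizontal axis, red points), ordered by value, with grey bars of ±1 robust SD of the 500 genes nearest in mean level and dashed lines at 1.5-fold. Nphs1 (0.31) and Cd2ap (0.20) lie outside their bars, the other 6 lie inside, and all 8 lie between the dashed lines.

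**Figure D3:**
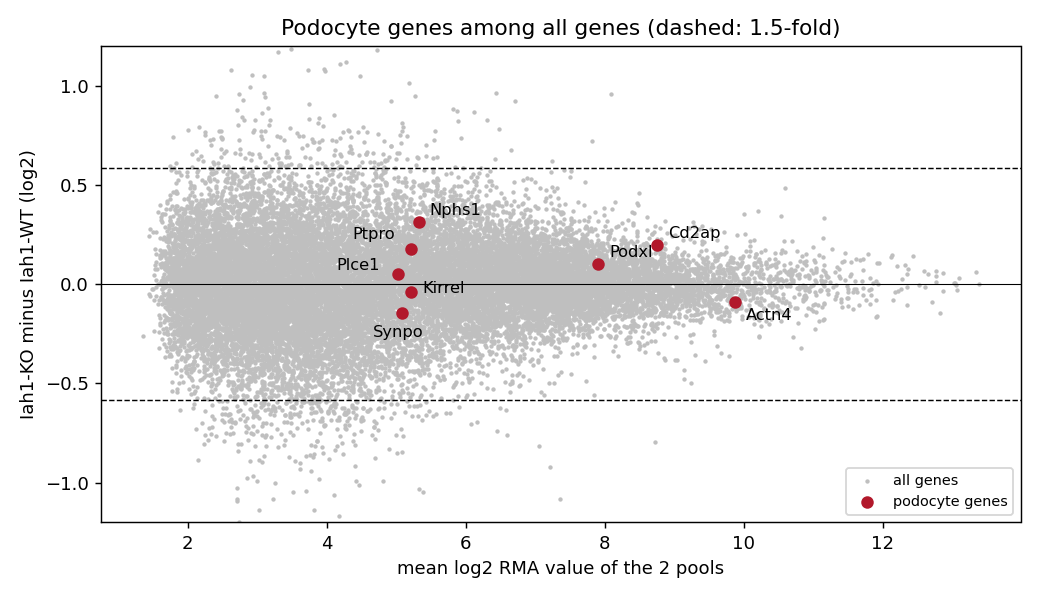
Difference, Iah1-KO minus Iah1-WT on the log2 scale (vertical axis), against the mean log2 RMA value of the 2 pools (horizontal axis) for all genes (grey) and the 8 podocyte genes (red), with dashed lines at 1.5-fold. The vertical axis ends at 1.2 in each direction, which leaves out 12 genes; the podocyte genes lie within the grey cloud, which narrows toward higher levels.

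Genes that work beside the set were examined as lists. Whole-kidney RNA does not show which cells the values of these lists come from. Other slit junction genes had lower values more often than higher ones: 15 of 23 lay below 0 and 8 above, 0 passed 1.5-fold and the median was -0.08. Among the 14 of them at or above the floor the median was -0.04. Prkcz, an atypical protein kinase C of the polarity complex, was at 7.18 in the Iah1-KO pool and 6.86 in the Iah1-WT pool, a difference of 0.31. The scaffold gene Cask differed by 0.24, the adaptor gene Nos1ap by -0.21 and Grb2, an SH2 adaptor, by -0.19. Foot process actin genes were divided evenly, with 13 of 25 above 0 and 12 below, 0 past 1.5-fold and a median of 0.01. Arhgap24, which encodes a GTPase-activating protein for Rac, was at 7.13 in the Iah1-KO pool and 7.49 in the Iah1-WT pool, a difference of -0.36. Vasp, which promotes actin filament growth, differed by -0.25, the actin regulator Kank1 by 0.25 and Slc9a3r1, a PDZ adaptor that binds ezrin, by -0.15.

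Genes of the basement membrane that podocytes share with endothelium, and of adhesion to it, lay mostly just below 0. Of 19 genes 15 were below 0 and 4 above, 0 passed 1.5-fold and the median was -0.05. Lamb2, the laminin beta 2 chain of the mature glomerular basement membrane, stood apart at 6.86 in the Iah1-KO pool and 6.49 in the Iah1-WT pool, a difference of 0.37. Itga3, which encodes a subunit of the laminin receptor of podocytes, differed by -0.19, the integrin ligand gene Npnt by -0.12 and Utrn by -0.11. Col4a3, Col4a4 and Col4a5 are named here after their values were seen, as collagen chains mutated in Alport syndrome. Col4a3 and Col4a4 both differed by -0.05, and Col4a5, under the floor in both pools, by -0.14.

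Other podocyte genes did not move one way. Of 8 transcription factors 4 lay above 0 and 4 below, 0 passed 1.5-fold and the median was -0.06. Tcf21 differed by 0.29, Foxc1 by -0.35, Tead1, an effector of Hippo signalling, by -0.28 and Klf15 by 0.13, while Wt1 and Lmx1b both differed by 0.02. Of 21 podocyte markers outside the set, 10 lay above 0 and 11 below, with 0 past 1.5-fold and a median of -0.01. Wt1, Lmx1b and Tcf21 stand in both lists, so the counts share genes. Of the markers, Ildr2 was at 7.28 in the Iah1-KO pool and 7.00 in the Iah1-WT pool. Dach1 differed by 0.27 and the semaphorin gene Sema3g by 0.15. The largest sizes in this list, those of Nes, Pard3b and Rasl11a, lay below 0 in genes under the floor. These genes, Pla2r1 and Srgap1 are named here after their values were seen. Nes, which encodes the intermediate filament protein nestin, was at 5.04 in the Iah1-KO pool and 5.54 in the Iah1-WT pool, a difference of -0.50. Pard3b and Rasl11a both differed by -0.33, Pla2r1 by -0.29 and Srgap1 by -0.27. For Pla2r1, a further probe set that carries several symbols differed the other way, by 0.34. Its values were under the array median in both pools, so no direction is given for Pla2r1. The summed linear values of the 21 markers were 1448 in the Iah1-KO pool and 1443 in the Iah1-WT pool. Bright genes weigh most in these sums, with Bmp7 the brightest at 7.67 (Iah1-KO) and 7.68 (Iah1-WT). The sums do not measure podocyte number.

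Close relatives of the set, from the same protein families, centred near 0 as well. Of 22 relatives 12 lay above 0 and 10 below, 0 passed 1.5-fold and the median was 0.02. Plcg2, a phospholipase C gene, differed by 0.20, Ptprb, a receptor phosphatase gene of endothelium, by 0.17, Actn1, the other widely made non-muscle alpha-actinin gene, by -0.13 and Plcb1 by -0.11. The relatives of the slit adhesion gene Kirrel had values of 4.00 in the Iah1-KO pool and 3.98 in the Iah1-WT pool for Kirrel2, and of 3.86 (Iah1-KO) and 3.80 (Iah1-WT) for Kirrel3; at these levels, near the array medians, no difference can be read. Magi1 and Magi3, the paralogs of the unmeasured Magi2, differed by -0.15 and 0.03. Kirrel2, Kirrel3, Magi1 and Magi3 are named as family members of the set, after their values were seen.

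Markers of endothelium and of mesangial and smooth muscle cells are given beside the podocyte genes because Podxl is also made by endothelium. Whole-kidney RNA does not separate glomerular vessels from other vessels, and summed values weigh bright genes most. Of 13 endothelial markers 10 lay above 0 and 3 below, 0 passed 1.5-fold and the median was 0.10, with a summed linear value of 3413 in the Iah1-KO pool and 3250 in the Iah1-WT pool. Cdh5, the endothelial cadherin gene, differed by 0.24, Ehd3, a marker of glomerular endothelium, by 0.21, Flt1 by 0.16 and Eng by 0.15. Kdr, a VEGF receptor gene, was the furthest below 0 at -0.13, followed by Plat at -0.12 and Cd34 at -0.05; these 3 were named with their values known, and all 13 were above the floor. Of 8 mesangial and smooth muscle markers 5 lay above 0 and 3 below, with a median of 0.11 and summed values of 802 in the Iah1-KO pool and 768 in the Iah1-WT pool. Des, which encodes desmin, was the gene past 1.5-fold there, at 5.00 in the Iah1-KO pool and 4.34 in the Iah1-WT pool, both below the floor. A second probe set, which carries several symbols with Des among them, was at 3.81 in the Iah1-KO pool and 3.93 in the Iah1-WT pool. Tagln differed by -0.29, Myh11 by 0.17, Acta2 by 0.15 and Itga8 by 0.08. The part of these cell types in the differences of Podxl and the other podocyte genes was not tested.

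**Figure D4:**
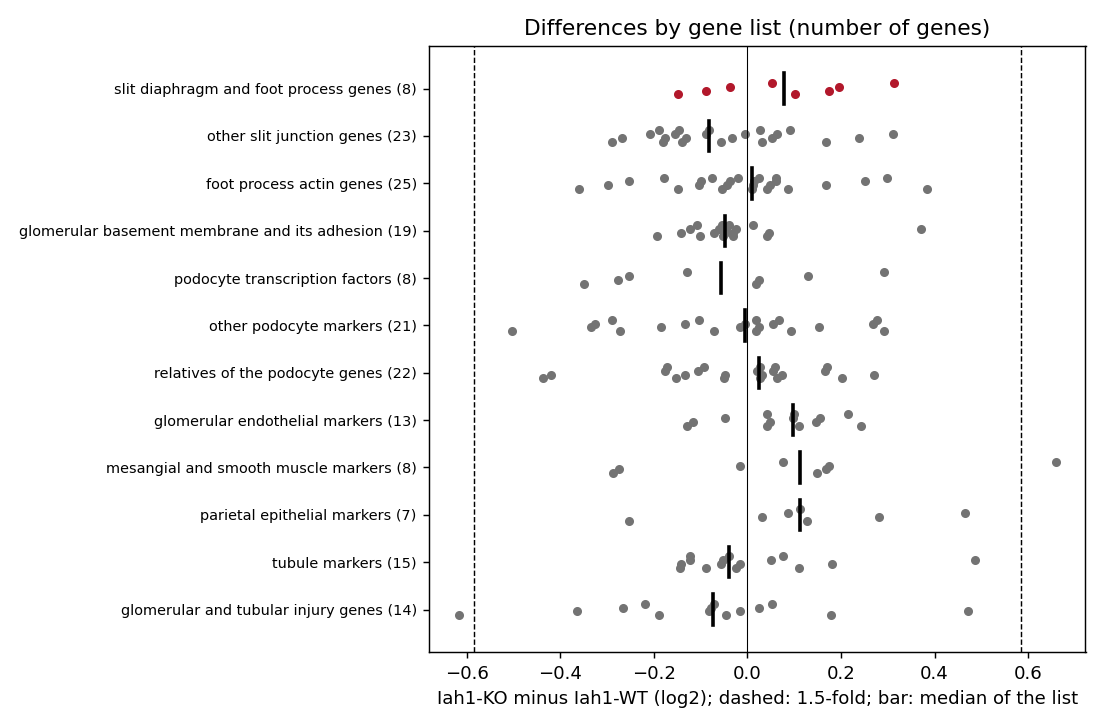
Differences, Iah1-KO minus Iah1-WT on the log2 scale (horizontal axis), of the genes in each list (rows, with the number of genes), with a black bar at the median of a list and dashed lines at 1.5-fold. The 8 podocyte genes (red, top row) run from -0.15 to 0.31 with a median of 0.08, and Des and Lcn2 are the genes beyond the dashed lines. The row of endothelial markers does not separate glomerular from other vessels.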

How the data were processed

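Kidney RNA was measured on 2 Affymetrix arrays, 1 per genotype, each with pooled RNA of 3 mice; 100 ng of total RNA was labelled, per the labels' protocols. Per the submitters' processing notes, the deposited log2 values, 1 per probe set, came from RMA run with Affymetrix Expression Console 1.3.0. RMA gives the arrays 1 common distribution by quantile normalization, so a change shared by most transcripts would not be visible. The number of arrays sets the precision.

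Of 41345 probe sets, 23521 had 1 gene symbol in the platform annotation, 1814 several and 16010 none. The first kind covered 22180 genes. Values were used as deposited, with Python 3.11.15, numpy 2.4.6, pandas 2.3.3 and statsmodels 0.14.6, and the local spread, the fold counts and the lowess step were tested on simulated data. Differences are Iah1-KO minus Iah1-WT. With 1 array per genotype no test was made. The genes of the set and the lists (188 genes, 176 with a value) were chosen with earlier results of these data known. Some genes, such as Kirrel2 and Cd34, stand in more than 1 list. Named were Iah1, the set, defining podocyte markers, and per list every gene past 1.5-fold and the 4 largest differences among genes at or above log2 6 in either array; genes named otherwise are marked in the text. Likeness of pattern between genes cannot be measured over 2 arrays. Alternatives were centring, a lowess correction on level (fraction 0.3), the mean over probe sets, probe sets with several symbols, other fold thresholds, the floor, and list means.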

Additional observations from a re-analysis of the deposited data

How the results depend on the processing

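With no replicates, the value of a gene was compared across settings against its local robust SD, and the median of a list against the robust SD of its genes' differences divided by the square root of their number. All 32 alternative values of the 8 podocyte genes (centring, lowess, mean over probe sets, probe sets with several symbols) kept their sign and moved by at most 0.01 (0.008) on the log2 scale; each of the 8 genes has 1 probe set and none shares one with another symbol, so the last 2 settings could not move them. The count of podocyte genes past 1.5-fold was 0 in each direction under those settings, at 2-fold, and among the 3 genes at or above the floor. With 0 of the 8 past 1.5-fold, the counts at 2-fold and among those 3 genes could only be 0. At 1.2-fold it was 1 higher (Nphs1) and 0 lower. The median of the set ran from 0.07 to 0.10. For the 11 other lists, 6 of 66 alternative medians moved by more than that measure and 7 had the other sign: the actin list as a mean (-0.01) and over all probe sets (-0.04), the transcription factors (0.02) and other podocyte markers (0.02) at or above the floor, the relatives as a mean (-0.03) and with shared probe sets (-0.01), and the tubule markers as a mean (0.01). No direction is therefore given for these lists. Some medians moved by more than that measure and kept their sign. They were those of the slit junction list at or above the floor (-0.04), the basement membrane list as a mean (-0.03) and the endothelial list as a mean (0.07). No paired analysis was possible because each genotype has 1 array. Signal below the floor limits what Nphs1, Kirrel, Synpo, Ptpro and Plce1 can show.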

Other observations

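Genes of other kidney compartments that bear on glomerular health were also read. Parietal epithelial markers, for the cells that line Bowman's capsule, lay above 0 in 6 of 7 genes. Whole-kidney RNA does not separate parietal cells from tubule, so the count does not describe parietal cells alone. The list had 0 genes past 1.5-fold, a median of 0.11 and summed linear values of 1533 (Iah1-KO) and 1400 (Iah1-WT). Cd24a, at 9.20 (Iah1-KO) and 9.07 (Iah1-WT), weighs most in the sums, which do not measure the number of parietal cells. Pax2, a transcription factor of parietal and collecting duct cells, was at 6.27 in the Iah1-KO pool and 5.80 in the Iah1-WT pool, a difference of 0.47. Cldn1, a claudin gene, differed by 0.28, Cd24a by 0.13 and Scin by 0.11. Ncam1, under the floor and named after its values were seen, was the 1 gene below 0, at -0.25. Of 15 tubule markers 5 lay above 0 and 10 below, with 0 past 1.5-fold and a median of -0.04. Aqp2, the vasopressin-regulated water channel gene of the collecting duct, was at 6.68 in the Iah1-KO pool and 6.20 in the Iah1-WT pool, a difference of 0.49. Slc4a1 differed by 0.18, and Calb1 and Slc5a12 both by -0.14.

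Injury genes of glomerulus and tubule had lower values more often than higher ones, with 10 of 14 below 0, 4 above and a median of -0.07. Only 6 of the 14 were at or above the floor, and among these the median was -0.03. Lcn2, a secreted marker of tubular injury, was the gene past 1.5-fold, at 4.87 in the Iah1-KO pool and 5.49 in the Iah1-WT pool, both below the floor. Havcr1, which encodes the tubular injury marker KIM-1, lay the other way at 3.47 in the Iah1-KO pool and 2.99 in the Iah1-WT pool, a difference of 0.47, and is named after its values were seen; both values were under the array median. Angptl4, which is also a PPAR target, was at 8.01 in the Iah1-KO pool and 8.38 in the Iah1-WT pool, and 0.8% of the 500 genes nearest in level differed by at least as much. Tgfb1 differed by -0.22, the intermediate filament gene Vim by 0.05 and Fn1 by -0.05.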
